A study of Oryctolagus cuniculus with 20 samples.

Results

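The counts of 3 genes for subunits of the mitochondrial respiratory chain, NDUFB3 (ENSOCUG00000011069), NDUFB6 (ENSOCUG00000005089) and UQCRC1 (ENSOCUG00000002041), were followed across 20 rabbit tricuspid valves. They are 3 of the 23669 genes in the count table, where 13749 genes were seen in any valve and 8683 passed the filter for testing, and all 3 members were among the tested genes. The members were chosen on values of these same counts. Which values led to the choice is not stated, and the comparisons of treated with control valves are taken to be among them. Their differences from control are therefore a description, with no test. TTN (ENSOCUG00000016777), the gene of the giant sarcomere protein titin, was read in the same valves as a check on muscle transcripts. Symbols came from the study's own lists of changed genes and were found for 3456 of the tested genes (39.8%), so every gene named here had already been listed by the study on these samples, and no count of named genes is independent evidence of a direction.

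The respiratory chain in the inner mitochondrial membrane carries electrons to oxygen and pumps protons, and complex I is its entry for electrons from NADH, with catalytic core subunits surrounded by accessory subunits such as NDUFB3 and NDUFB6, which lie in the membrane arm. Complex III passes electrons from ubiquinol to cytochrome c, and UQCRC1 is one of its large core proteins on the matrix side. Heart muscle cells are packed with mitochondria, whereas valve leaflets are made mainly of interstitial cells and the matrix they lay down.

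The valves came from New Zealand white rabbits in 4 groups of 5, and each library held the RNA of 1 valve. Control rabbits drank water, and the others received a drug by mouth for 16 weeks, namely serotonin (daily dose 80 mg/kg), pergolide (daily dose 0.5 mg/kg) or dexfenfluramine (daily dose 20 mg/kg in the labels), for which the study's text also names a lower dose. Serotonin is the natural agonist of serotonin receptors, pergolide is an ergot derivative and dexfenfluramine is an amphetamine-like appetite suppressant, and the study asked how long treatment with each changes the valve. By the study's methods the rabbits were female and were 8 weeks old when divided into groups, with valves collected after the 16 weeks. The labels give no sequencing batch, and whole valves were taken at a single time point, so cell types were not separated. Total counts ran from 4206516 to 5831376 in control valves, from 3526853 to 4880440 with serotonin, from 4484239 to 5921025 with pergolide and from 3247091 to 5790948 with dexfenfluramine.

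A pair of libraries stood apart from their groups. In dexfenfluramine replicate 3, TTN took 1.73% of all counts, against 5.39 to 6.39% in the other dexfenfluramine valves, and the most abundant gene of the table, which has no symbol, took 20.3%, the lowest share of the 20 valves. In control replicate 3 that gene took 28.5% of the counts, against 40.4 to 48.1% in the other controls, and TTN took 4.54%, against 5.35 to 6.45%. Group means of the 3 members, and differences of the members and TTN from control, are given with and without them. Levels are CPM, counts scaled to library size after TMM, with a factor that ran from 0.584 to 1.25 in control valves and from 1.08 to 1.72 in dexfenfluramine valves. When total counts were used without TMM factors, an alternative chosen after seeing the data, the median log2 fold change of all tested genes against control moved from 0.01 to 0.13 with serotonin, from 0.02 to 0.46 with pergolide and from 0.03 to 0.70 with dexfenfluramine, so values under that scaling are to be read relative to those medians, and the text says where a value is printed before its median is taken off.

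NDUFB3 is a small accessory subunit of complex I anchored in the membrane. Its level in control replicates 1 to 5 was 90.9, 73.7, 39.9, 106 and 58.4 CPM. With serotonin it was 55.2, 116, 39.2, 90.9 and 57.0 CPM, a range that spans that of the controls. Pergolide gave 45.8, 45.6, 45.1, 36.4 and 26.3 CPM, and with dexfenfluramine 25.2, 26.02, 12.4, 30.0 and 37.99 CPM. All 5 dexfenfluramine valves lay below all 5 control valves and below all 5 serotonin valves, while 3 of the 5 pergolide valves fell inside the control range. In dexfenfluramine minus control, 8.71% of tested genes had every treated valve below every control valve, and in dexfenfluramine minus serotonin 12.2% did, so such a gap was not rare. Mean ± SD was 73.8 ± 26.03 CPM in control, 71.8 ± 31.3 with serotonin, 39.8 ± 8.52 with pergolide and 26.3 ± 9.28 with dexfenfluramine (n = 5 each). In that order of means, control and serotonin differed by less than 1 SD of either. Without control replicate 3 the control mean was 82.2 ± 20.6 CPM, and without dexfenfluramine replicate 3 the dexfenfluramine mean was 29.8 ± 5.85 CPM (n = 4 each).

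NDUFB6, another accessory subunit of the membrane arm, had lower counts, 49 to 187 per valve, so counting error weighs more on it. Control replicates 1 to 5 held 46.2, 32.5, 20.0, 39.7 and 35.7 CPM, and serotonin replicates 27.7, 59.2, 32.4, 45.9 and 36.8 CPM. Pergolide replicates held 24.3, 22.4, 24.9, 16.9 and 15.7 CPM, and dexfenfluramine replicates 16.1, 14.1, 8.82, 16.8 and 22.3 CPM. Every pergolide and every dexfenfluramine valve lay below the lowest serotonin valve, which was true of 11.9% of tested genes in pergolide minus serotonin. Against control the groups overlapped through control replicate 3, with 4 of 5 dexfenfluramine valves and 2 of 5 pergolide valves below it. Means were 34.8 ± 9.72 CPM in control, 40.4 ± 12.4 with serotonin, 20.8 ± 4.28 with pergolide and 15.6 ± 4.86 with dexfenfluramine (SD, n = 5 each). The serotonin and control means differed by less than 1 SD. Without control replicate 3 the control mean was 38.5 ± 5.89 CPM, and without dexfenfluramine replicate 3 the dexfenfluramine mean was 17.3 ± 3.49 CPM (n = 4 each).

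UQCRC1 followed another order. Its control valves held 128, 92.4, 41.6, 91.2 and 79.6 CPM, and its serotonin valves 42.2, 68.0, 52.0, 59.3 and 43.5 CPM. Pergolide valves held 54.0, 74.5, 88.7, 49.2 and 39.0 CPM, and dexfenfluramine valves 70.8, 44.1, 17.8, 60.0 and 73.7 CPM. The 5 serotonin valves lay close together between control replicate 3 and the other 4 control valves, and the pergolide and dexfenfluramine valves overlapped with every other group. Means were 86.6 ± 31.1 CPM in control, 53.0 ± 10.9 with serotonin, 61.1 ± 20.1 with pergolide and 53.3 ± 23.0 with dexfenfluramine (SD, n = 5 each), and the 3 treated means differed by less than 1 SD. Without control replicate 3 the control mean was 97.9 ± 21.1 CPM, and without dexfenfluramine replicate 3 the dexfenfluramine mean was 62.2 ± 13.4 CPM (n = 4 each). No member had separated groups in serotonin or pergolide minus control, or in dexfenfluramine minus pergolide, where 0.61%, 8.34% and 0.541% of tested genes had every valve of the first group below every valve of the second.

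**Figure D1:**
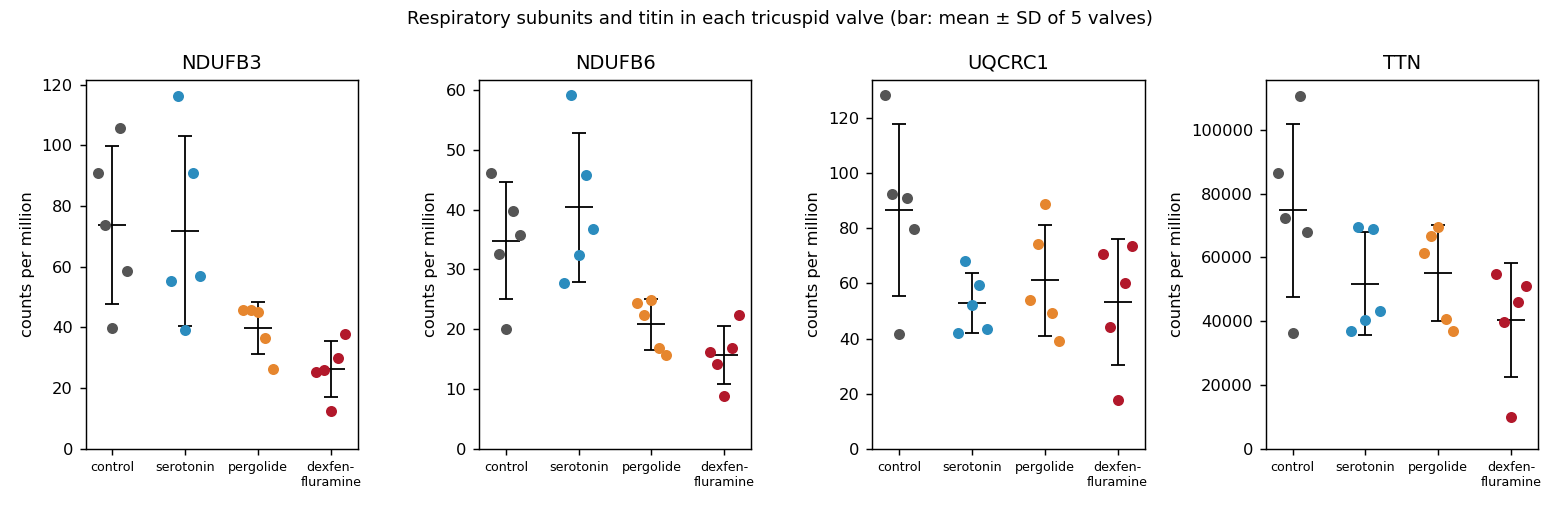
Level of NDUFB3, NDUFB6, UQCRC1 and TTN in each of the 20 valves, in CPM, with 1 point a valve and bars for the mean ± SD of 5 valves. NDUFB3 and NDUFB6 are low in the pergolide and dexfenfluramine valves (means from 15.6 to 39.8 CPM), whereas the UQCRC1 means of the 3 treated groups lie between 53.0 and 61.1 CPM.

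As log2 fold changes from control (± SE, n = 5 against 5), NDUFB3 was at −0.03 ± 0.29 with serotonin, −0.88 ± 0.30 with pergolide and −1.47 ± 0.30 with dexfenfluramine. The values of NDUFB6 were 0.23 ± 0.24, −0.73 ± 0.24 and −1.14 ± 0.24 in the same order. Those of UQCRC1 were −0.70 ± 0.31, −0.50 ± 0.31 and −0.69 ± 0.31. These 3 comparisons share the control valves and are taken as the ones the members were chosen on, so no p is given for them. Less RNA per cell and fewer cells of a type cannot be told apart in whole valves. Relative to the shifted median under total counts, NDUFB3 stood at −0.02, −0.81 and −1.46, NDUFB6 at 0.23, −0.69 and −1.14, and UQCRC1 at −0.65, −0.45 and −0.70. Before that median was taken off, the direction turned for NDUFB3 with serotonin (0.12) and for UQCRC1 with pergolide (0.01), and UQCRC1 was at −0.01 with dexfenfluramine. With dexfenfluramine replicate 3 left out, the dexfenfluramine values were −1.29 for NDUFB3, −0.98 for NDUFB6 and −0.47 for UQCRC1. Without control replicate 3, in the order serotonin, pergolide and dexfenfluramine, NDUFB3 was at −0.20, −1.04 and −1.64, NDUFB6 at 0.068, −0.88 and −1.29, and UQCRC1 at −0.88, −0.68 and −0.87, and with both libraries left out the dexfenfluramine values were −1.46, −1.15 and −0.66. Single valves moved some values by more than 1.5 times. NDUFB6 with serotonin was at 0.049 without serotonin replicate 2 and 0.34 without control replicate 1, and UQCRC1 with pergolide was at −0.33 without control replicate 1. NDUFB3 with serotonin turned above 0 without control replicates 1 (0.050) or 4 (0.13) or serotonin replicates 1 (0.050), 3 (0.12) or 5 (0.039), and was lower without control replicate 5 (−0.11) or serotonin replicates 2 (−0.27) or 4 (−0.14).

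The treatments were then compared with one another, which leaves out the control valves. The treated valves themselves are taken to have entered the choice of the members, so these tests are not independent evidence either. Of the 3 members, NDUFB3 and NDUFB6 were lower with pergolide than with serotonin, where 15.1% of all tested genes were called lower and 12.4% higher. The same 2 members were lower with dexfenfluramine than with serotonin, where 16.4% were called lower and 13.9% higher. NDUFB3 was lower with pergolide by a log2 fold change of −0.85 ± 0.30 (adjusted p = 0.0382 over 8683 genes), with all 5 pergolide valves below the serotonin median. That call was lost, with the direction kept, when serotonin replicate 2 (−0.62, adjusted p = 0.131), serotonin replicate 4 (−0.75, adjusted p = 0.0865), pergolide replicate 3 (−0.89, adjusted p = 0.0502), pergolide replicate 4 (−0.81, adjusted p = 0.0756) or pergolide replicate 5 (−0.73, adjusted p = 0.0961) was left out, and over the other alternatives its adjusted p ran from 7.2e-05 to 0.107. NDUFB3 was lower with dexfenfluramine than with serotonin by −1.44 ± 0.30 (adjusted p = 0.00114), and every setting kept that call, with adjusted p from 2.05e-05 to 0.041 over the alternatives other than leaving out 1 valve.

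NDUFB6 was lower with pergolide than with serotonin by −0.95 ± 0.24 (adjusted p = 0.00497) and lower with dexfenfluramine by −1.36 ± 0.24 (adjusted p = 0.000238), with no overlap between valves in either comparison. Both calls held with each valve left out in turn. As the treated valves are taken to have entered the choice of NDUFB6, neither these p nor this stability is independent evidence. Surrogate variables from svaseq reduced the pergolide difference to −0.56 in limma-voom (adjusted p = 0.0648) and −0.57 in edgeR (adjusted p = 0.0624), within a range of 2.97e-06 to 0.0648 over the alternatives, and the dexfenfluramine difference to −0.62 in limma-voom (adjusted p = 0.0528), within a range of 7.57e-07 to 0.0528. UQCRC1 showed no called difference between treatments. It was at 0.21 in pergolide minus serotonin (95% interval −0.44 to 0.86, adjusted p = 0.669) and at 0.01 in dexfenfluramine minus serotonin (−0.64 to 0.66, adjusted p = 0.987), intervals that allow a difference in either direction. The pergolide value was 0.13 without serotonin replicate 1, 0.12 without pergolide replicate 2, 0.036 without pergolide replicate 3 and 0.33 without pergolide replicate 5. The dexfenfluramine value was 0.23 without dexfenfluramine replicate 3, turned to −0.06 under total counts relative to the median of all genes, and went below 0 without serotonin replicates 1 (−0.06) or 5 (−0.05) or dexfenfluramine replicates 1 (−0.11), 4 (−0.04) or 5 (−0.14). With the mean of the cardiomyocyte markers as a covariate, its difference in dexfenfluramine minus serotonin became 0.47 (adjusted p = 0.00499), within a range of 0.00499 to 0.998 over the alternatives.

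Pergolide and dexfenfluramine did not differ in a called way for any member. The differences, dexfenfluramine minus pergolide, were −0.59 for NDUFB3 (95% interval −1.22 to 0.04, adjusted p = 0.708), −0.41 for NDUFB6 (−0.92 to 0.10, adjusted p = 0.757) and −0.20 for UQCRC1 (−0.84 to 0.45, adjusted p = 0.899). All 5 dexfenfluramine valves lay below the pergolide median for NDUFB3 and for NDUFB6, and 2 of 5 for UQCRC1. Without dexfenfluramine replicate 3 the differences were −0.41 for NDUFB3, −0.26 for NDUFB6 and 0.03 for UQCRC1, the last with its direction turned. UQCRC1 was also at −0.11 without pergolide replicate 2, −0.026 without pergolide replicate 3, −0.32 without pergolide replicate 5, −0.32 without dexfenfluramine replicate 1 and −0.35 without dexfenfluramine replicate 5. In this comparison edgeR called 0% of all tested genes lower and 0% higher, with 613 genes at an unadjusted p under 0.05, while DESeq2 called 4 genes and limma-voom 0. The doses of the 2 drugs differ, and the intervals do not show that the drugs act alike on these subunits.

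TTN served as the muscle check. Its level in control replicates 1 to 5 was 86498, 72283, 36419, 110639 and 67809 CPM, and in serotonin replicates 36789, 69502, 40475, 68779 and 43227 CPM. In pergolide replicates it was 61434, 66585, 69490, 40745 and 36934 CPM, and in dexfenfluramine replicates 54821, 39867, 10100, 46022 and 51043 CPM. All groups overlapped, and dexfenfluramine replicate 3 was far below every other valve. The log2 fold change of TTN from control was −0.53 ± 0.37 with serotonin (adjusted p = 0.501), −0.44 ± 0.37 with pergolide (adjusted p = 0.41) and −0.89 ± 0.38 with dexfenfluramine (adjusted p = 0.0804), none of them called. These were −0.70, −0.62 and −1.06 without control replicate 3, the last was −0.64 without dexfenfluramine replicate 3, and without control replicate 4 the serotonin and pergolide values were −0.35 and −0.27. Under total counts these became −0.48, −0.37 and −0.88 relative to the median of all genes, and the pergolide value turned to 0.09 before that median was taken off. UQCRC1 stood near TTN in each of the 3 comparisons, while NDUFB3 and NDUFB6 stood above TTN with serotonin and below it with both drugs.

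Ratios of raw counts within a valve need no scaling factor and show the same members against TTN directly. The log2 ratio of NDUFB3 to TTN differed from its control mean by 0.43 with serotonin, −0.44 with pergolide and −0.49 with dexfenfluramine. In control valves it ran from −10.18 to −9.84, in pergolide valves from −10.59 to −10.13 and in 4 dexfenfluramine valves from −11.09 to −10.39, with dexfenfluramine replicate 3 at −9.67. Without that valve the dexfenfluramine difference was −0.69, and −0.65 when control replicate 3 was left out as well. The ratio of NDUFB6 to TTN differed by 0.71 with serotonin, −0.31 with pergolide and −0.16 with dexfenfluramine, the last being −0.41 without dexfenfluramine replicate 3 and −0.36 without control replicate 3 too. Single valves pulled that −0.16 both ways, as dexfenfluramine replicate 3 stood at −10.16 and the other 4 ran from −11.73, in replicate 1, to −11.16. All 5 serotonin valves, from −10.55 to −10.20, were above all 5 control valves, from −11.44 to −10.83, a gap that 1.14% of the 8682 tested genes besides TTN showed in their ratio to TTN. The ratio of UQCRC1 to TTN differed by −0.15, −0.08 and 0.24, the last being 0.14 without dexfenfluramine replicate 3, and these differences rest in part on control replicate 4, which stood at −10.24 while the other control valves ran from −9.77 to −9.40. These differences involve contrasts that are taken as the ones the members were chosen on, and they were not tested.

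**Figure D2:**
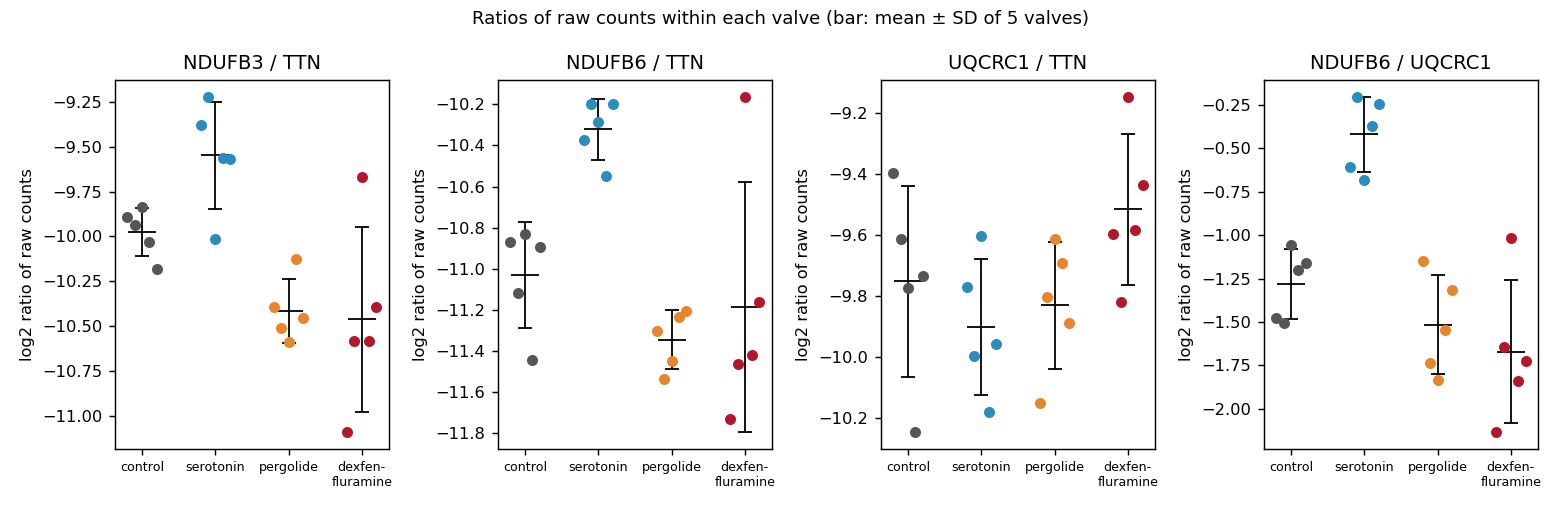
Log2 ratio of raw counts within each of the 20 valves for NDUFB3, NDUFB6 and UQCRC1 over TTN and for NDUFB6 over UQCRC1, with bars for the mean ± SD of 5 valves. The ratio of UQCRC1 to TTN overlaps in all 4 groups, and the 5 serotonin valves, from −0.68 to −0.20, stand above all others in the ratio of NDUFB6 to UQCRC1.

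The members also parted from one another. The log2 ratio of NDUFB6 to UQCRC1 averaged −1.28 ± 0.20 in control, −0.42 ± 0.21 with serotonin, −1.52 ± 0.28 with pergolide and −1.67 ± 0.41 with dexfenfluramine (SD, n = 5 each). Serotonin replicates 1 to 5 were at −0.61, −0.20, −0.68, −0.37 and −0.24, above each of the other 15 valves, the highest of which was dexfenfluramine replicate 3 at −1.01. Of the 8682 tested genes besides UQCRC1, 0.334% (29) had a ratio to UQCRC1 that set the serotonin valves above all others. Both genes of the ratio are members chosen on these counts, so that share is a description and not a test. For NDUFB3 over UQCRC1 the difference from control was 0.58 in serotonin valves, −0.36 in pergolide valves and −0.72 in dexfenfluramine valves (−0.83 without dexfenfluramine replicate 3). The accessory pair NDUFB3 and NDUFB6 stayed closer to each other, with a ratio that differed from control by −0.28, −0.12 and −0.33. The first 2 of these rest in part on single valves. Control replicate 4 stood at 1.42 while the other controls ran from 0.71 to 1.18, and serotonin replicate 3 at 0.27 while the other serotonin valves ran from 0.63 to 0.99.

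Within the groups, valves high in TTN were high in the members. After subtraction of each group's mean log2 CPM, Pearson's r with TTN over the 20 valves was 0.878 for NDUFB3 (permutation p = 2e-05), 0.885 for NDUFB6 (p = 1e-05) and 0.926 for UQCRC1 (p = 1e-05), where 1e-05 is the smallest value the 100000 two-sided permutations within groups can give. Spearman's rho was 0.871 (permutation p = 2e-05), 0.854 (p = 2e-05) and 0.826 (p = 0.00013). The member and TTN lay on the same side of their group means in 20 of 20 valves for NDUFB3, 17 for NDUFB6 and 18 for UQCRC1. With the 2 valves farthest from the median of TTN, control replicate 3 and dexfenfluramine replicate 3, left out and the group means taken anew, r was 0.839, 0.847 and 0.778 (largest adjusted p = 0.00128). Between members, r was 0.913 for NDUFB3 with NDUFB6 (permutation p = 1e-05, rho 0.916, p = 1e-05), 0.882 for NDUFB6 with UQCRC1 (p = 1e-05, rho 0.847, p = 5e-05) and 0.804 for NDUFB3 with UQCRC1 (p = 9e-05, rho 0.756, p = 0.00037), and without those 2 valves, in this order, 0.847, 0.779 and 0.622 (largest adjusted p = 0.00644). Adjusted over the 6 relations computed, the p of r was 2.4e-05 for NDUFB3 with TTN, 9e-05 for NDUFB3 with UQCRC1 and 1.5e-05 for the other 4, and the largest adjusted p of rho was 0.00037. All points of a valve share its library and scaling factor, and under total counts without TMM factors the r of NDUFB3 with UQCRC1 was 0.472 (adjusted p = 0.0653), while the other 5 ran from 0.625 to 0.813 (largest adjusted p = 0.0264). The share of all tested genes that follow TTN as closely within groups was not counted. Other genes had a higher group-centred r with a member than TTN had. Examples are FXR1 with NDUFB3 (0.939), COX7B with NDUFB6 (0.960) and MDH2 with UQCRC1 (0.974). A tie particular to TTN is thus not shown.

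**Figure D3:**
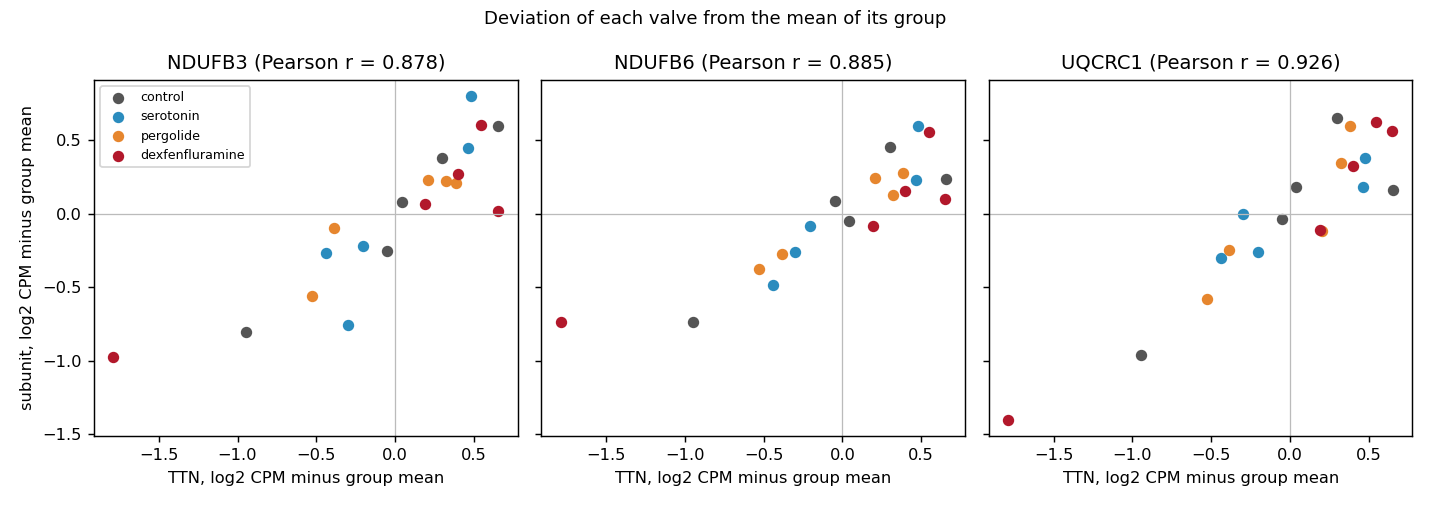
Deviation of each of the 20 valves from the mean of its group, in log2 CPM, for TTN on the x axis and for NDUFB3, NDUFB6 and UQCRC1 on the y axis, coloured by group. Points rise together in all 3 panels (r of 0.878, 0.885 and 0.926), with dexfenfluramine replicate 3 at the far left.

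The fit was repeated with the TTN level of each valve as a covariate. The dexfenfluramine values against control then became −0.73 for NDUFB3, −0.56 for NDUFB6 and 0.05 for UQCRC1, and with the mean of the cardiomyocyte markers as the covariate −0.65, −0.48 and 0.19. For pergolide they became −0.53, −0.48 and −0.15 with TTN, and −0.44, −0.39 and −0.02 with the markers. In serotonin valves NDUFB3 and NDUFB6 moved up to 0.35 and 0.52 with TTN as the covariate, and UQCRC1 to −0.25. A covariate measured in the same libraries can also take out part of a treatment's own difference, and how much of these shifts it took out was not tested. Between treatments, the differences from serotonin kept their calls with the TTN covariate, at −0.88 for NDUFB3 (adjusted p = 7.2e-05) and −0.996 for NDUFB6 (adjusted p = 2.97e-06) with pergolide, and at −1.08 for both with dexfenfluramine (adjusted p = 2.05e-05 and 3.09e-06). The treated valves are taken to have entered the choice of these members, so the kept calls are not independent evidence.

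**Figure D4:**
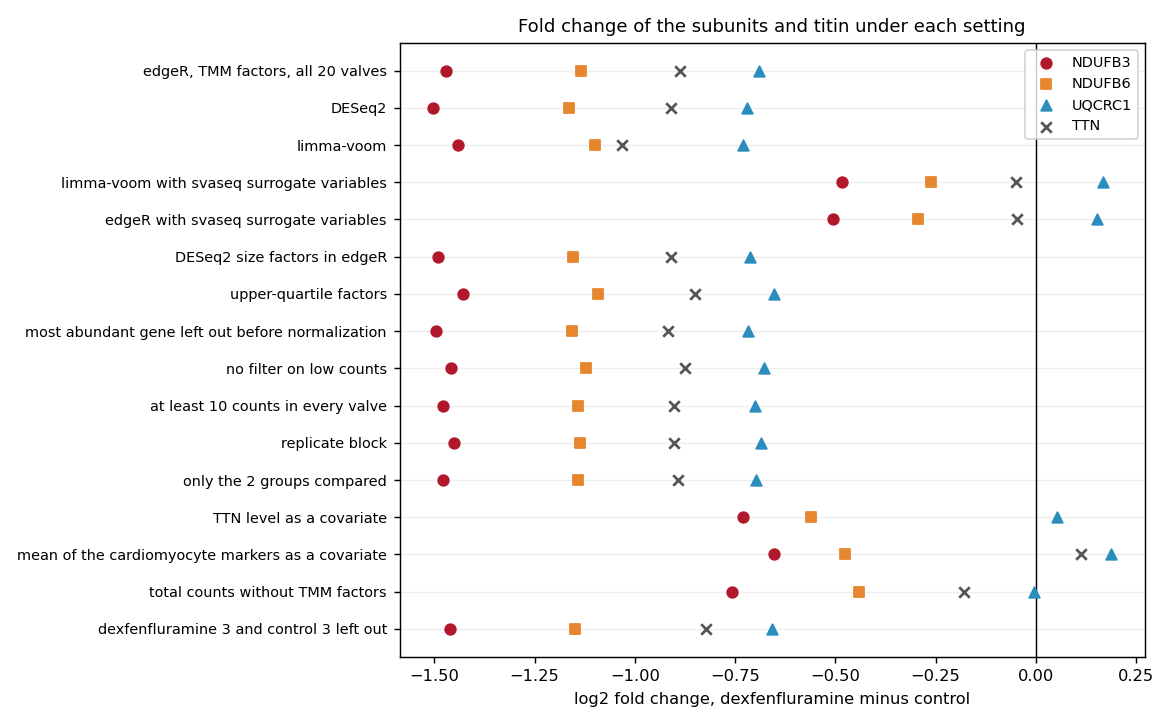
Log2 fold change of NDUFB3, NDUFB6, UQCRC1 and TTN in dexfenfluramine minus control under 16 settings of the fit, listed on the y axis. NDUFB3 and NDUFB6 are below 0 throughout and nearer to 0 with surrogate variables and the covariates, where UQCRC1 turns above 0 (0.05 to 0.19). Under total counts the points are drawn before the shift of 0.70 in the median of all genes is taken off, and relative to it they are at −1.46, −1.14 and −0.70.

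The wider cardiomyocyte list held 14 of 20 marker genes with a symbol and a test. Its 14 genes sum to 148436, 111166, 51447, 157819 and 101816 CPM in control replicates 1 to 5 and to 55479, 108944, 62843, 101699 and 66365 CPM in serotonin replicates. In pergolide replicates the sums were 85956, 96397, 96554, 55056 and 50061 CPM, and in dexfenfluramine replicates 73969, 54792, 13028, 63304 and 74408 CPM. TTN was the most abundant gene of the list, and none of the 14 genes was at 0 in any valve. Called lower were 0 with serotonin (1 at an unadjusted p under 0.05, 0 by DESeq2 and 0 by limma-voom), 1 with pergolide and 5 with dexfenfluramine, with medians of −0.53, −0.53 and −0.98. The shares of 7.14% with pergolide and 35.7% with dexfenfluramine stand beside 12.7% and 15.4% of all tested genes and 28.6% and 34.3% of those with a symbol, so they were no higher than, or near, the share among named genes. TNNT2 and TNNC1, subunits of troponin, fell with dexfenfluramine by −2.79 ± 0.46 (adjusted p = 0.000191) and −1.84 ± 0.49 (adjusted p = 0.0084), while CSRP3, a Z-disc protein, was at −0.12 ± 0.28 (0.02 without control replicate 4 and 0.10 without dexfenfluramine replicate 3) and LDB3, another, at −0.38 ± 0.30. Under total counts both were above 0 (0.54 and 0.34) but below the median of 0.70 for all genes. The pergolide count was 4 without control replicate 3, 6 without dexfenfluramine replicate 3 and 2 without pergolide replicate 3, and the dexfenfluramine count was 3 without control replicate 1 and 9 without control replicate 3. Under total counts, 3 genes were called lower and 1 higher with dexfenfluramine, and the median was −0.28 against 0.70 for all genes. The part of muscle content in the levels of the 3 members was not tested.

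Other nuclear subunits of complexes I and III showed which members had company. Of 46 such subunits, 20 had a symbol and were tested, 17 of them besides the members. With serotonin 0 of the 17 were called lower (1 at an unadjusted p under 0.05, 0 by DESeq2, 0 by limma-voom, 2 with both control replicate 3 and dexfenfluramine replicate 3 left out) and 0 higher, where 0.15% of all tested genes were called lower and 1.04% higher. With pergolide 1 of the 17 was called lower and 0 higher, against 12.7% lower and 12.1% higher among all genes. Of the genes with a symbol, 28.6% were called lower and 28.1% higher with pergolide. With dexfenfluramine 10 of the 17 were called lower and 0 higher, against 15.4% lower and 13.5% higher among all genes and 34.3% lower among the 3456 with a symbol, and the medians of the 17 were −0.24, −0.32 and −0.65 in the 3 comparisons. The pergolide count was 0 without control replicates 1, 4 or 5 or pergolide replicates 1, 4 or 5, 2 without serotonin replicate 2, pergolide replicate 2 or dexfenfluramine replicate 3, and 3 without control replicate 3. The subunit count with dexfenfluramine was 5 without control replicate 1, control replicate 4, dexfenfluramine replicate 2 or dexfenfluramine replicate 3, and 15 without control replicate 3. All 17 lay below 0 with dexfenfluramine, but under total counts, before the shift of the median was taken off, 8 of 17 did, with 2 called lower, 1 called higher and a median of 0.04 against 0.70 for all genes. With the TTN covariate 2 were called lower with dexfenfluramine and 1 higher, and with surrogate variables in edgeR 0 lower and 1 higher.

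Among the other NDUFB subunits, which share the membrane arm with NDUFB3 and NDUFB6, NDUFB9 fell with pergolide (−1.01 ± 0.33, adjusted p = 0.0318) and with dexfenfluramine (−1.56 ± 0.34, adjusted p = 0.00192). Its pergolide call was lost without control replicates 1 (−0.74), 4 (−0.94) or 5 (−0.99) or pergolide replicates 1 (−1.03), 4 (−0.91) or 5 (−0.92), in limma-voom (−0.82, adjusted p = 0.0897), with the replicate block (−0.88, adjusted p = 0.0654), with surrogate variables (−0.35, adjusted p = 0.361, in edgeR and −0.31, adjusted p = 0.432, in limma-voom), with the marker covariate (−0.53, adjusted p = 0.068) and under total counts (−0.44 against a median of 0.46 for all genes, adjusted p = 0.134). NDUFB4 (−0.48 ± 0.19) and NDUFB5 (−0.44 ± 0.21) were not called with dexfenfluramine, though NDUFB4 was without control replicate 3 (−0.58), serotonin replicate 2 (−0.49) or dexfenfluramine replicate 4 (−0.56), and NDUFB5 without control replicate 3 (−0.56). The 7 other accessory subunits gave 6 called lower with dexfenfluramine, where 15.4% of all tested genes and 34.3% of those with a symbol were called lower. The lowest were NDUFA3 at −1.24 ± 0.31 and NDUFAB1, the mitochondrial acyl carrier protein, at −1.01 ± 0.31. The highest were NDUFS5 at −0.53 ± 0.18 and NDUFS4, the 1 not called, at −0.48 ± 0.20. Calls were lost for NDUFAB1 without control replicate 1 (−0.80) and for NDUFS5 without control replicates 1 (−0.50) or 4 (−0.45) or dexfenfluramine replicates 2 (−0.51) or 3 (−0.42), and NDUFS4 gained one without control replicate 3 (−0.60) or dexfenfluramine replicate 5 (−0.60). With surrogate variables in edgeR, NDUFAB1 (0.12), NDUFS5 (0.026), NDUFS4 (0.20), NDUFB4 (0.12) and NDUFB5 (0.13) turned above 0, as NDUFS5 (0.16), NDUFS4 (0.22), NDUFB4 (0.22) and NDUFB5 (0.25) did under total counts before the shift of the median was taken off. Of these 7, with edgeR, 0 were called with serotonin (0 at an unadjusted p under 0.05) and 0 with pergolide (0 at an unadjusted p under 0.05), and DESeq2 and limma-voom also called 0 of them in both.

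The core subunits of complex I carry its redox centres, and 4 of 7 had a symbol and a test. None was called against control with any treatment (0 by edgeR, by DESeq2 and by limma-voom, with 1, 0 and 2 at an unadjusted p under 0.05 for serotonin, pergolide and dexfenfluramine). The median of the 4 with dexfenfluramine was −0.48, in a range from −0.65 to −0.07. With pergolide against control they ran from −0.27 to 0.35, and 1 of the 4 was called higher in pergolide minus serotonin. Values are printed for 3 of the 4, which leave out the highest with dexfenfluramine and do not stand for the whole list. NDUFS1 was at −0.65 ± 0.28 with dexfenfluramine, NDUFV2 at −0.49 ± 0.21 and NDUFS3 at −0.46 ± 0.30, these 3 above 0 under total counts before the shift of the median was taken off. NDUFS1 was called without control replicate 3 (−0.81) and NDUFV2 without control replicate 3 (−0.65) or dexfenfluramine replicate 5 (−0.62).

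Next to UQCRC1 in complex III, the small subunits UQCRB (−1.30 ± 0.32), UQCRQ (−0.90 ± 0.30) and UQCRH (−0.78 ± 0.27) fell with dexfenfluramine (adjusted p = 0.00497, 0.0311 and 0.033), each by more than the −0.69 of UQCRC1. The call of UQCRQ was lost without control replicates 1 (−0.86), 2 (−0.85) or 4 (−0.77) or dexfenfluramine replicates 1 (−0.84), 2 (−0.90) or 3 (−0.69), and that of UQCRH without control replicates 1 (−0.73) or 4 (−0.62) or dexfenfluramine replicates 1 (−0.79), 2 (−0.66) or 3 (−0.70). UQCRQ and UQCRH turned to above 0 with surrogate variables, and the difference between them and UQCRC1 was not tested. In edgeR these 3 subunits besides UQCRC1 gave 0 calls with serotonin (0 at an unadjusted p under 0.05) and 0 with pergolide (1 at an unadjusted p under 0.05), where DESeq2 called 0 and 1 and limma-voom 0 and 0.

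**Figure D5:**
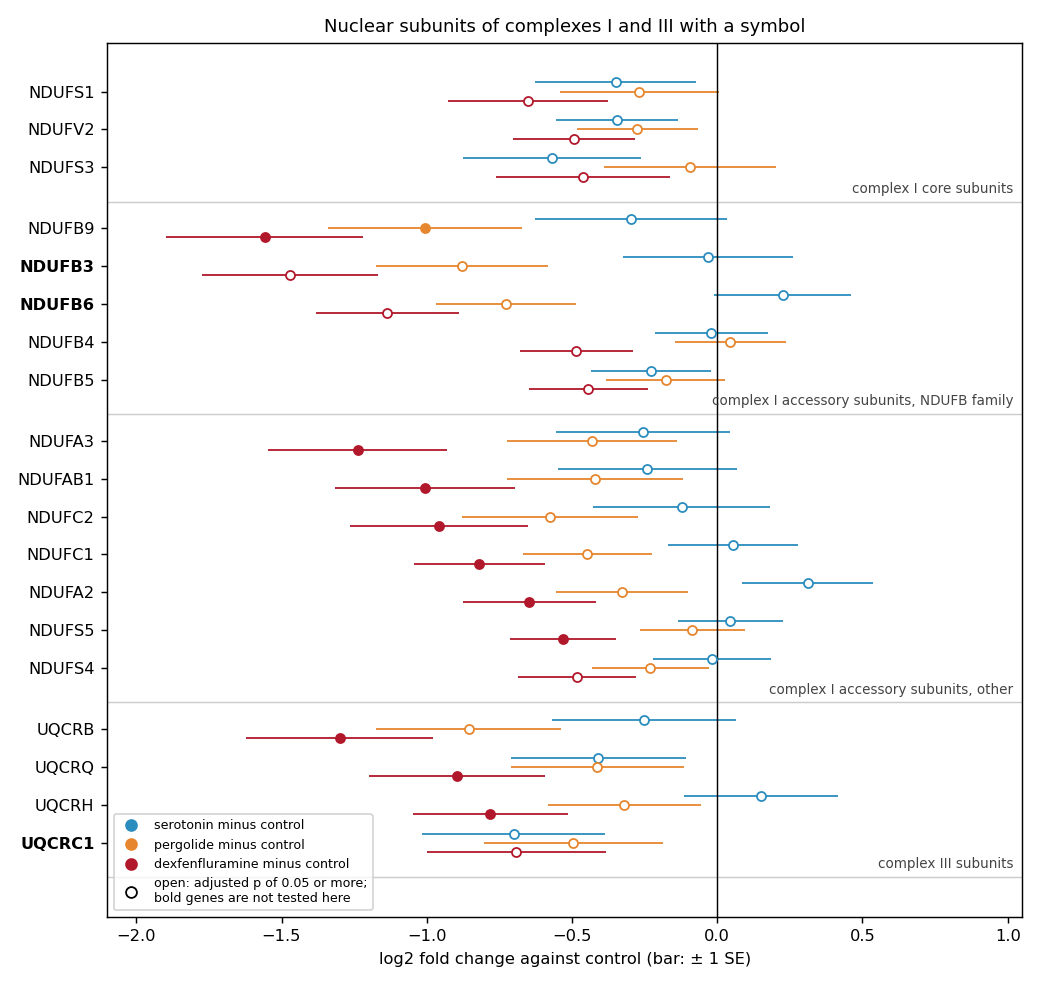
Log2 fold change from control, with bars of 1 SE, for 19 of the 20 nuclear subunits of complexes I and III with a symbol (1 is not drawn), by treatment and by kind of subunit. Filled points have an adjusted p under 0.05, and the members, in bold, carry no test. With dexfenfluramine all 19 points lie below 0 under TMM scaling, while under total counts, which moved the median of all genes to 0.70, 8 of the 17 subunits besides the members did and their median was 0.04.

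The subunits encoded in mitochondrial DNA belong partly to the complexes of the members and partly to others, such as complex IV, and all 13 were tested. With serotonin 0 were called (0 at an unadjusted p under 0.05, 0 by DESeq2, 0 by limma-voom), with pergolide 8 were called lower (61.5%, against 12.7% of all tested genes and 28.6% of those with a symbol) and with dexfenfluramine 13 (100%, against 15.4% and 34.3%), with medians of −0.06, −1.07 and −1.45. ND6 and ND4L, both of complex I, were lowest with dexfenfluramine at −2.27 ± 0.33 and −1.88 ± 0.33, and ND3 of complex I (−1.06 ± 0.37) and COX3 of complex IV (−1.19 ± 0.34) were highest. The call of ND3 was lost without control replicates 1 (−1.06), 2 (−1.05) or 4 (−0.84) or dexfenfluramine replicates 1 (−1.02), 2 (−1.06), 3 (−0.84) or 4 (−0.99). The pergolide count was 4 without control replicate 1 and 3 without control replicate 4, pergolide replicate 4 or pergolide replicate 5. With both replicate 3 libraries left out it was 13, and under total counts 3 were called lower with pergolide and 10 with dexfenfluramine, with all 13 below 0 in both.

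By pattern over the 20 valves, the 5 tested genes with a symbol most like NDUFB3 in log2 CPM were FXR1, ND4, FILIP1, ATP6 and DNAJC19 (Pearson's r from 0.961 to 0.969). Those most like NDUFB6 were COX7B, ND4, ND2, ATPIF1 and ATP6 (0.970 to 0.977), so the mitochondrially encoded ND4 and ATP6 stood in both. UQCRC1 had MDH2, CLUH, BVES, LDHB and PRKAR2A (0.941 to 0.969). TTN ranked 23 for UQCRC1 (r = 0.924), 361 for NDUFB3 (r = 0.805) and 713 for NDUFB6 (r = 0.731). These r include the differences between groups and the shared scaling of each library, and are a description.

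Regulators of mitochondrial biogenesis were read beside the members. Of 5 with a symbol, edgeR called 0 with serotonin and 0 with pergolide (0 and 2 at an unadjusted p under 0.05, 0 and 2 by DESeq2, 0 and 0 by limma-voom), and 3 were called lower and 1 higher with dexfenfluramine, where 15.4% of all tested genes were called lower, 13.5% higher, and 34.3% of those with a symbol lower. PPARGC1A and PPARGC1B, transcriptional coactivators of mitochondrial genes, fell by −1.21 ± 0.31 and −1.02 ± 0.31 (adjusted p = 0.00549 and 0.0183), and TFB2M, a mitochondrial transcription factor, by −0.86 ± 0.26 (adjusted p = 0.0195). GABPB1 rose by 0.32 ± 0.12 (adjusted p = 0.0473), and the nuclear receptor ESRRG was at −0.50 ± 0.24, and under total counts at 0.20, which is below the median of 0.70 for all genes. The call of GABPB1 was lost with each of 15 valves left out (0.29 to 0.33), all but control replicate 3, serotonin replicates 3 and 5, pergolide replicate 5 and dexfenfluramine replicate 5. PPARGC1B lost its call without control replicate 4 (−0.86), and TFB2M without control replicates 4 (−0.76) or 5 (−0.74) or dexfenfluramine replicate 2 (−0.75). The pergolide count was 2 without control replicate 3 or dexfenfluramine replicate 3 and 1 without control replicate 2, serotonin replicate 2, pergolide replicate 2 or pergolide replicate 3, and the dexfenfluramine count of lower genes was 1 without control replicate 4. Levels of the members against these regulators were not tested.

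The scaling bears on how such counts read. Of the genes called with TMM factors, the lower ones made up 12.6% with serotonin, 51.2% with pergolide and 53.2% with dexfenfluramine against control, and 54.9% and 54.1% for pergolide and dexfenfluramine against serotonin. Under total counts those shares were 0%, 3.66%, 2.31%, 14.6% and 5.29%. With serotonin the share was also 25.7% with upper-quartile factors and 24.3% with the most abundant gene left out, and 48.2% with both replicate 3 libraries left out. NDUFB3 and NDUFB6 stayed below 0 with both drugs under each of these scalings.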

How the data were processed

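RNA of 20 tricuspid valves was measured. The deposited values are raw counts per Ensembl gene: the authors depleted ribosomal RNA, made stranded libraries, aligned with TopHat2 2.1.1 to oryCun2 and counted with HTSeq after Picard quality control. The annotation release and strand setting are not stated, and the authors' later corrections are not in the counts. Column letters and numbers were matched to the labels, with w taken as control.

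Counts were scaled by TMM and filtered by filterByExpr in edgeR 4.0.16 (R 4.3.3). The 4 groups were fitted together and tested by quasi-likelihood, with Benjamini-Hochberg adjustment over 8683 genes at 0.05; calls mean an adjusted p under 0.05. SE came from the same fit. Log2 CPM for correlations used a prior count of 2, with permutations in SciPy 1.17.1 under Python 3.11.15; tables used pandas 2.3.3 and figures matplotlib 3.10.9. Total counts ran from 3247091 to 5921025, and the spread between 5 valves limits precision more than counting does.

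Of 3799 entries in the study's lists, 2959 identifiers were found, 564 were matched after removing 1 surplus zero and 276 were shortened and not matched, giving 3521 genes a symbol. Lists held subunits and assembly factors of complexes I, II and III, subunits of complex IV and ATP synthase, mitochondrially encoded subunits, citric acid cycle genes, biogenesis regulators, and markers of cardiomyocytes, valvular interstitial, endothelial, smooth muscle, adipocyte, macrophage and erythroid cells. Members and lists were chosen with earlier results of these data known. Genes named are among the members, TTN, the 2 lowest and 2 highest of a list in dexfenfluramine minus control (all of lists of up to 5, but for 1 core subunit of complex I), and the 5 genes most like each member. For the lists given in the closing section only counts and medians are printed.

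Alternatives were DESeq2 1.42.0, limma-voom (limma 3.58.1), 4 svaseq surrogate variables (sva 3.50.0) in limma-voom and edgeR, DESeq2 size factors, upper-quartile factors, the most abundant gene left out, other filters, the replicate block, only 2 groups, muscle covariates, each valve left out, other prior counts and, chosen after seeing the data, total counts and both replicate 3 libraries left out. The fit was checked on simulated counts.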

Additional observations from a re-analysis of the deposited data

Results flagged for a closer look

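The TTN level of dexfenfluramine replicate 3, a log2 CPM of 13.30, lay far below the other 4 valves of its group, which ran from 15.28 to 15.74. The gap to the nearest valve was 0.812 of the group's range, past the critical value of Dixon's test for 5 values at 95%. It was the 1 such value among the 16 groups of 5 valves tested (4 genes in 4 groups). Those groups share their libraries, so they are not independent, and how often such a value would arise without a cause was not tested. In the same valve NDUFB3 was at 3.68 (gap 0.629), NDUFB6 at 3.21 (gap 0.505) and UQCRC1 at 4.19 (gap 0.636), each the lowest of its group without passing that value. Its cause was not tested.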

How the results depend on the processing

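Of the settings tried, most left the results for NDUFB3, NDUFB6 and UQCRC1 within the limits set for a change, and the ones below did not. For values against control that limit was 1 pooled SD between valves, 0.54 for NDUFB3, 0.42 for NDUFB6 and 0.58 for UQCRC1. It is wider than some of the values themselves. With serotonin and the TTN covariate, NDUFB3 went from −0.03 to 0.35 and UQCRC1 from −0.70 to −0.25, and both count as unchanged. Staying within the limit is thus weak evidence of stability. Values are log2 fold changes unless said otherwise, and the cause was not tested for any of them. "Subunits" are the 17 nuclear subunits of complexes I and III besides the members, counted when called lower.

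With surrogate variables in edgeR, NDUFB3 and NDUFB6 came to −0.33 and −0.22 in pergolide minus control, and NDUFB3, NDUFB6 and UQCRC1 to −0.50, −0.29 and 0.15 in dexfenfluramine minus control. In limma-voom the same values were −0.33 and −0.20, then −0.48, −0.26 and 0.17. Subunits were 0 and 0 with pergolide and dexfenfluramine in edgeR, and 0 and 0 in limma-voom. In pergolide minus serotonin NDUFB3 lost its call (−0.51, adjusted p = 0.107, in edgeR and −0.52, adjusted p = 0.0907, in limma-voom), as did NDUFB6 (−0.57, adjusted p = 0.0624, and −0.56, adjusted p = 0.0648), and NDUFB6 lost it in dexfenfluramine minus serotonin in limma-voom (−0.62, adjusted p = 0.0528). UQCRC1 changed sign in dexfenfluramine minus pergolide (0.19 and 0.18). Genes called among all tested were 1437, 931, 1000 and 937 in edgeR for pergolide and dexfenfluramine minus control and then minus serotonin, and 1431, 960, 1010 and 940 in limma-voom.

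In dexfenfluramine minus control these genes were above 0 with surrogate variables in edgeR: NDUFS1 0.22, NDUFV2 0.062, NDUFS3 0.46, NDUFB4 0.12, NDUFB5 0.13, NDUFAB1 0.12, NDUFS5 0.026, NDUFS4 0.20, UQCRQ 0.042, UQCRH 0.18, LDB3 0.41 and CSRP3 0.51. In limma-voom they were NDUFS1 0.23, NDUFV2 0.069, NDUFS3 0.48, NDUFB4 0.12, NDUFB5 0.13, NDUFAB1 0.12, NDUFS5 0.031, NDUFS4 0.19, UQCRQ 0.049, UQCRH 0.15, LDB3 0.42 and CSRP3 0.50.

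With the TTN covariate, dexfenfluramine minus control gave −0.73 for NDUFB3, −0.56 for NDUFB6 and 0.054 for UQCRC1, with subunits at 2 (2 with pergolide) and UQCRC1 at 0.20 in dexfenfluramine minus pergolide, a reversed sign. Signs were also reversed for NDUFS1 0.051, NDUFV2 0.032, NDUFS3 0.28, NDUFB5 0.054, ESRRG 0.049, LDB3 0.40 and CSRP3 0.51. With the cardiomyocyte markers as the covariate the members came to −0.65, −0.48 and 0.19, subunits to 0 and all genes called to 1616. UQCRC1 was at 0.21 in dexfenfluramine minus pergolide, reversed, and gained a call at 0.47 in dexfenfluramine minus serotonin (adjusted p = 0.00499). Reversed there were NDUFS1 0.13, NDUFV2 0.080, NDUFS3 0.37, NDUFB5 0.098, NDUFS4 0.012, ESRRG 0.076, LDB3 0.51 and CSRP3 0.59.

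Under total counts, where the median of all genes moved to 0.46 with pergolide and 0.70 with dexfenfluramine against control and the values here are printed before it is taken off, NDUFB6 came to −0.23 with pergolide, and NDUFB3, NDUFB6 and UQCRC1 to −0.76, −0.44 and −0.0054 with dexfenfluramine. Subunits were 0 and 2, and genes called 5101 in dexfenfluramine minus control and 1592 in pergolide minus serotonin, where NDUFB3 lost its call (−0.47, adjusted p = 0.0954). The within-group r of NDUFB3 with UQCRC1 was 0.472 (adjusted p = 0.0653). Above 0 before the median was taken off, and below that median, were NDUFS1 0.055, NDUFV2 0.22, NDUFS3 0.24, NDUFB4 0.22, NDUFB5 0.25, NDUFS5 0.16, NDUFS4 0.22, ESRRG 0.20, LDB3 0.34 and CSRP3 0.54.

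Genes called of all tested in serotonin minus control, 103 at first, were the least stable count: 234 by DESeq2, 53 with DESeq2 size factors, 37 with the most abundant gene left out, 48 with no filter, 58 with at least 10 counts in every valve, 1 with the replicate block, 0 with only 2 groups, 183 and 187 with the TTN and marker covariates, 2 under total counts and 481 with both replicate 3 libraries left out. DESeq2 called 4 genes in dexfenfluramine minus pergolide.

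Subunits in pergolide minus control, 1 at first, were 2 by DESeq2, 0 by limma-voom, 2 with DESeq2 size factors, 2 with the most abundant gene left out, 2 with at least 10 counts, 2 with only 2 groups, 0 with the replicate block and 6 with both replicate 3 libraries left out, where serotonin minus control had 2. In limma-voom NDUFB3 lost its call in pergolide minus serotonin (−0.77, adjusted p = 0.0687). UQCRC1, near 0 in dexfenfluramine minus serotonin, turned to −0.12 in limma-voom, −0.0024 with only 2 groups and −0.026 with the replicate block. In dexfenfluramine minus pergolide it turned to 0.026 with both replicate 3 libraries left out.

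With each valve left out in turn, the lowest and highest values were −0.9996 and −0.62 for NDUFB3 in pergolide minus serotonin, −0.35 and 0.026 for UQCRC1 in dexfenfluramine minus pergolide, −0.14 and 0.23 for it in dexfenfluramine minus serotonin, and −0.27 and 0.10 for CSRP3 in dexfenfluramine minus control. Subunits ran from 0 to 3 with pergolide and from 5 to 15 with dexfenfluramine, and genes called in serotonin minus control from 0 without control replicate 2 to 257 without control replicate 3.

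Over all settings, values of members against control stayed within 1 pooled SD between valves of the first fit in 295 comparisons and moved farther in 20, and members between treatments kept direction and call in 288, with 14 reversed, 12 weaker and 1 stronger. Valves with the same number did not resemble each other (mean r of −0.022), so the first fit is unpaired and the replicate block was an alternative.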

Other observations

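Other lists were counted in serotonin, pergolide and dexfenfluramine minus control in that order. Among tested genes with a symbol, 0.145%, 28.6% and 34.3% were called lower in these comparisons, against 0.15%, 12.7% and 15.4% of all tested genes, and 1.48%, 28.1% and 31.8% were called higher, against 1.04%, 12.1% and 13.5%. Complex I assembly factors (5 tested) had 0, 1 and 2 called lower, with medians of −0.28, −0.36 and −0.58, and the 1 tested assembly factor of complex III was called lower with dexfenfluramine alone among the 3 comparisons. Nuclear subunits of complex IV (4) had 0, 0 and 2 called lower (0, 3 and 2 at an unadjusted p under 0.05, and 0, 1 and 2 by DESeq2 and 0, 0 and 2 by limma-voom) and medians of 0.13, −0.53 and −0.89. Nuclear subunits of ATP synthase (7) had 0, 1 and 3 called lower and medians of −0.31, −0.40 and −0.60 (DESeq2 0, 1 and 4, limma-voom 0, 0 and 3). Citric acid cycle genes (6) had 0, 0 and 2 called lower (1, 0 and 3 at an unadjusted p under 0.05, with the same calls by DESeq2 and limma-voom) and medians of −0.42, −0.22 and −0.59. No list of these had a gene called higher.

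Markers of other cells were counted the same way. Valvular interstitial cell markers (7) had 0, 5 and 4 called higher (2, 6 and 4 at an unadjusted p under 0.05, and 0, 6 and 4 by DESeq2 and by limma-voom) and medians of 0.33, 0.75 and 0.76. Adipocyte markers (3) had 0, 3 and 0 called higher (2, 3 and 1 at an unadjusted p under 0.05, 0, 3 and 0 by DESeq2, 0, 1 and 0 by limma-voom) and medians of 1.63, 2.25 and 0.66. Endothelial markers (2) had 0, 2 and 0 called lower (0, 2 and 0 at an unadjusted p under 0.05 and by DESeq2 and limma-voom) and macrophage markers (2) 0, 1 and 0 called higher (1, 1 and 1 at an unadjusted p under 0.05, 0, 1 and 1 by DESeq2 and by limma-voom). Smooth muscle markers (2) had 1 called lower with dexfenfluramine and 0, 1 and 1 called higher. The lists of complex II subunits and erythroid markers had no gene with a symbol.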
